A study of Rattus norvegicus with 4 samples.

Results

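Trem2+ Cd209f- cells of the rat abdominal midline fascia are described here: C1q-expressing macrophages that carried Trem2 RNA but no RNA of Cd209f or Ccl24. They were chosen by measured values, namely the molecule counts (UMIs) of 12 genes in each cell. A cell entered the C1q gate with at least 20 UMIs of C1qa, C1qb and C1qc together per 10000 UMIs, no UMI of Cd3d, Cd3e or Cd3g, and fewer than 10 UMIs of Col1a1 and Col1a2 per 10000. Within the gate, a member had at least 1 UMI of Trem2, 0 of Cd209f, 0 of Ccl24 and fewer than 3 of Mmp12. This gave 318 cells of 38282 deposited, 34904 past the quality filter and 6061 in the gate. The other 5743 gate cells were 5076 cells with Cd209f or Ccl24 (Cd209f/Ccl24+ cells), 85 cells with neither gene and at least 3 UMIs of Mmp12 (Mmp12-high cells), and 582 cells with none of these and no UMI of Trem2 (Trem2 0 UMI cells).

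The study induced dysentery in rats with Salmonella and sequenced single cells of subcutaneous fascia from the abdominal midline, where the needles were placed. One group of 2 libraries came from dysenteric rats treated with acupuncture, and the other group of 2 libraries came from dysenteric rats without acupuncture. Both groups thus carried the infection, no healthy rat was used here, and the labels name neither strain, sex, age nor the number of animals. Libraries were grouped by title. For all 4 of them a second label, on treatment, gives the reverse assignment, so every direction between acupuncture and dysentery rests on the titles and would have its sign turned under that label. Nothing in the labels ties a library to an animal of its own, and a p-value here therefore covers variation among the libraries alone, which may be technical.

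TREM2 is a cell-surface receptor for lipids and lipoproteins that signals through the adaptor TYROBP and the kinase SYK. In mouse and human it marks macrophages that take up lipid, in adipose tissue, atherosclerotic plaques and the brain, often together with Apoe, Gpnmb, Spp1, Lgals3 and Fabp5. C1q is the recognition subunit of the classical complement pathway and is made mainly by tissue macrophages, and Cd209f (a C-type lectin) and Ccl24 (an eosinophil-attracting chemokine) are used in mouse as marks of long-lived resident macrophages.

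The members were macrophages by genes that the rule did not use. Cd68, a lysosomal membrane protein of macrophages, stood at 1306 and 1065 CPM (UMIs of the gene per 1000000 UMIs, summed over the cells of a library) in acupuncture libraries 1 and 2, against 1142 and 910 CPM in dysentery libraries 1 and 2. Csf1r, the receptor for macrophage colony-stimulating factor, stood at 772 and 1008 CPM with acupuncture and 619 and 775 CPM in dysentery. Tyrobp, the TREM2 adaptor, stood at 2676 and 2544 CPM with acupuncture and 3308 and 2603 CPM in dysentery. Markers of several other cell types were low: the summed level of 8 T cell genes was 6.70 and 25.5 CPM with acupuncture and 45.0 and 12.8 CPM in dysentery, and the B cell genes Ms4a1 and Pax5, the mast cell genes Kit, Ms4a2 and Hdc and the dendritic cell genes Xcr1 and Ccr7 were at 0 in all 4 libraries. The summed level of 10 dendritic cell genes was not low, at 281 and 273 CPM in members with acupuncture and 244 and 301 CPM in members in dysentery, and it stood at 309 and 297 CPM with acupuncture and 353 and 326 CPM in dysentery in the other gate cells. A summed level of 6 natural killer cell genes was 15.6 and 14.6 CPM with acupuncture and 240 and 16.02 CPM in dysentery, where Nkg7, a granule protein of cytotoxic cells, reached 70.2 CPM in dysentery library 1. Summed fibroblast genes were at 636 and 695 CPM with acupuncture and 1044 and 804 CPM in dysentery, and summed neutrophil genes at 29.0 and 31.9 CPM with acupuncture and 125 and 17.6 CPM in dysentery. Their part in the results between the groups was not tested.

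The name given by Trem2 did not set these cells apart from Cd209f/Ccl24+ cells, the largest part of the rest of the gate. Trem2 0 UMI cells lacked it by rule. Of Mmp12-high cells, 41.7% and 0% had a Trem2 UMI with acupuncture and 14.7% in dysentery library 1. Trem2 stood at 589 and 301 CPM in members of the acupuncture libraries and 939 and 277 CPM in members of the dysentery libraries. In Cd209f/Ccl24+ cells it stood at 584 and 312 CPM with acupuncture and 269 and 268 CPM in dysentery. Only in dysentery library 1 did the members carry much more Trem2 than the Cd209f/Ccl24+ cells, although every member had to have a Trem2 UMI. Of all Trem2 UMIs in cells past the quality filter, members held 2.58% and 3.97% in the acupuncture libraries and 30.2% and 10.7% in the dysentery libraries. Cd209f/Ccl24+ cells held 87.5% and 87.9% with acupuncture and 28.0% and 75.5% in dysentery. What these cells shared by rule was therefore Trem2 RNA without Cd209f or Ccl24 RNA, rather than high Trem2.

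The rule also left the C1q genes lower in members than in Cd209f/Ccl24+ cells, with C1qa at 5545 and 6931 CPM with acupuncture and 5975 and 6426 CPM in dysentery. In Cd209f/Ccl24+ cells C1qa stood at 10095 and 8924 CPM with acupuncture and 10241 and 9702 CPM in dysentery. C1qc, another chain of C1q, stood at 4630 and 6307 CPM in members with acupuncture and 4706 and 4229 CPM in members in dysentery. The groups overlapped for both genes, and no test was made on them because they chose the cells.

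Many members sat at the edge of the rule. Exactly 1 Trem2 UMI was found in 14 of 50 and 41 of 112 members with acupuncture and 22 of 73 and 48 of 83 members in dysentery. At least 10 Trem2 UMIs were found in 7 and 4 members with acupuncture and 18 and 2 members in dysentery, with highest counts of 31 and 12 with acupuncture and 54 and 12 in dysentery. Just outside the rule, 47 and 120 Trem2-positive gate cells with acupuncture and 20 and 38 in dysentery were left out by a single UMI of Cd209f or Ccl24. At the Mmp12 limit, only gate cells with no UMI of Cd209f or Ccl24 were counted. Of these, 15 in dysentery library 1 had exactly 3 Mmp12 UMIs, and none in the other libraries did. The lowest C1q level of a member was 22.1 and 24.7 per 10000 UMIs with acupuncture and 32.1 and 32.5 per 10000 in dysentery.

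Libraries held 70499776 and 93897006 UMIs with acupuncture and 53066666 and 79461544 UMIs in dysentery. Members had a median of 7829 and 8495.5 UMIs per cell with acupuncture and 9114 and 6922 in dysentery, and their sums came to 447977 and 1097898 UMIs with acupuncture and 754836 and 624194 UMIs in dysentery. Between 19 and 32 cell barcodes were shared by each pair of libraries, at most 0.358% of the smaller library, and no pair of libraries was alike within sampling noise. Cells scored as doublets were kept in the main values, and leaving them out removed 9 and 28 members with acupuncture and 2 and 2 in dysentery. The sums hold RNA of many cells, so fewer cells with a transcript and less of it per cell cannot be told apart in them.

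Members formed a smaller share of the C1q gate in both acupuncture libraries than in both dysentery libraries. They were 50 of 1903 and 112 of 2548 gate cells with acupuncture (2.63% and 4.40%) and 73 of 570 and 83 of 1040 gate cells in dysentery (12.8% and 7.98%). The mean share was 3.51% ± 1.25 with acupuncture and 10.4% ± 3.41 in dysentery (SD, n = 2 each), a difference of -6.88 percentage points. The two-sided exact permutation test over libraries gave p = 0.333, the smallest that 2 against 2 libraries can give, so this design could not pass 0.05. Members were 0.606% and 1.21% of all cells past the quality filter with acupuncture and 1.10% and 0.773% in dysentery, where the groups overlapped. The gate itself held 23.1% and 27.5% of such cells with acupuncture and 8.55% and 9.68% in dysentery.

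The share moved with depth. When each cell was thinned at random to 2000 UMIs and the rule applied again, 127 and 245 cells passed it with acupuncture and 63 and 69 in dysentery. Of these, 97 and 204 with acupuncture and 17 and 30 in dysentery had been Cd209f/Ccl24+ cells by their full counts. Only 27 of 47 and 38 of 109 members with acupuncture, and 44 of 69 and 36 of 83 in dysentery, still passed after thinning. The difference in the share of the gate was then -1.66 percentage points, and at 1000 UMIs it turned to 2.14 percentage points.

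**Figure D1:**
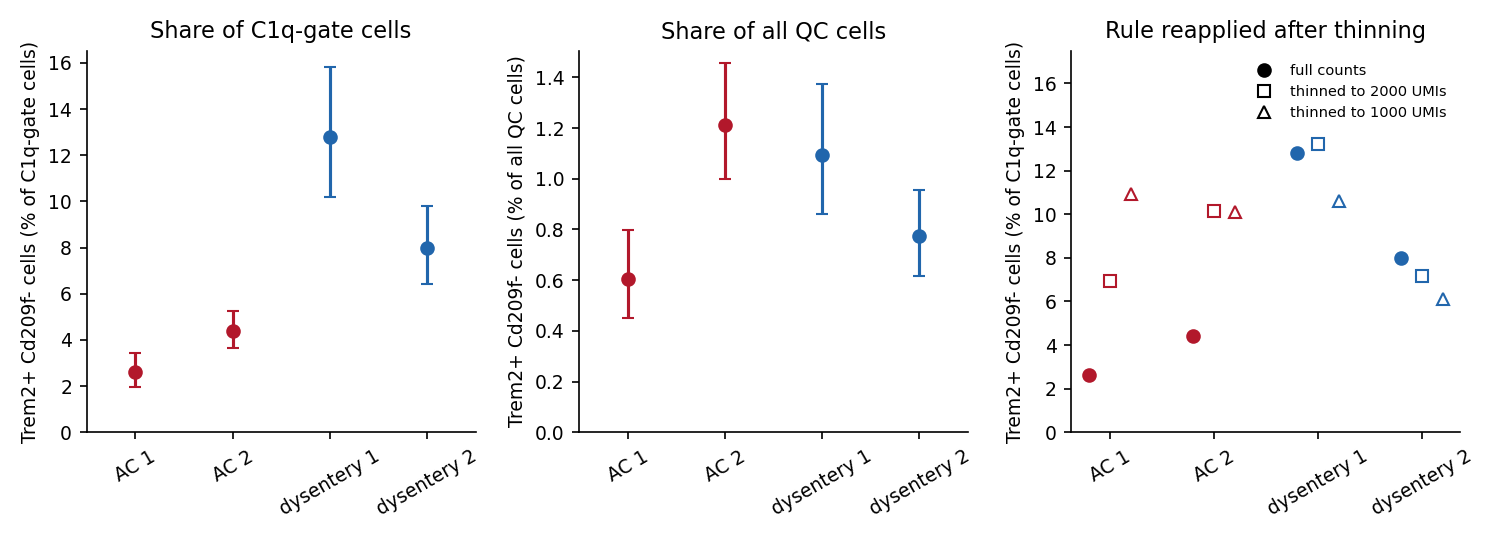
Share of Trem2+ Cd209f- cells per library, as a percentage of C1q-gate cells (left), of all cells past the quality filter (centre), and of gate cells after the rule was applied to cells thinned to 2000 or 1000 UMIs (right); AC is acupuncture, points are libraries and bars are 95% Clopper-Pearson intervals, which cover counting error only. The acupuncture libraries lie at 2.63% and 4.40% of the gate and the dysentery libraries at 12.8% and 7.98%, the groups overlap as a share of all cells, and the gap in the gate closes with thinning.

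Trem2 UMIs outside the gate set the background from free RNA. Shares and median depths in this paragraph, thinned or not, are of cells with at least 2000 UMIs, except where all gate cells are named. Over all gate cells, unthinned, Trem2 was found in 88.6% and 76.3% with acupuncture and 55.8% and 51.7% in dysentery. After thinning to 2000 UMIs, Trem2 was found in 60.7% and 38.7% of gate cells with acupuncture and 33.0% and 30.5% in dysentery, against 89.5% and 76.7% with acupuncture and 56.8% and 53.1% in dysentery unthinned. In T cells, which should lack it, the thinned share was 2.28% and 0.696% with acupuncture and 0% and 0.258% in dysentery, where 0 of 567 cells allows up to 0.648% (upper 95% Clopper-Pearson bound). Unthinned, Trem2 was found in 6.60% and 2.55% of T cells with acupuncture and 0.353% and 1.55% in dysentery. In fibroblasts, unthinned, it was found in 4.50% and 3.44% with acupuncture and 1.56% and 0.934% in dysentery. The rule itself used unthinned counts. Members with a single Trem2 UMI are read against these shares. Median depth was 8426 and 10130 UMIs in gate cells and 5912.5 and 6091 UMIs in T cells with acupuncture, and 7213 and 6526 UMIs in gate cells and 5625 and 5383 UMIs in T cells in dysentery.

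Members were not uniform in Apoe, the lipid-carrying apolipoprotein E. At least 100 Apoe UMIs per 10000 were found in 25 of 50 and 68 of 112 members with acupuncture and 21 of 73 and 10 of 83 members in dysentery, or 50.0% and 60.7% with acupuncture and 28.8% and 12.05% in dysentery. Between 50 and 200 Apoe UMIs per 10000 were found in 5 and 27 members with acupuncture and 12 and 6 in dysentery. This limit was chosen after the values were seen, so what follows for cells on either side of it is a description with no test. Apoe UMIs were widespread outside the gate, in 51.8% and 56.1% of thinned T cells with acupuncture and 69.5% and 56.3% in dysentery, and in 99.3% and 99.5% of thinned fibroblasts with acupuncture and 99.7% and 99.5% in dysentery. Gpnmb UMIs were found in 44.7% and 30.3% of thinned members with acupuncture and 24.6% and 21.7% in dysentery, against 37.3% and 27.2% of thinned fibroblasts with acupuncture and 51.98% and 46.2% in dysentery, and 4.06% and 1.39% of thinned T cells with acupuncture and 3.88% and 3.10% in dysentery. The part of fibroblast RNA in the levels of both genes was not tested.

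Apoe-high and Apoe-low members differed in other genes within each library. RT1-Da, a chain of the MHC class II antigen-presenting molecule, stood at 4938 CPM in Apoe-high against 14206 CPM in Apoe-low members of acupuncture library 1, and at 4804 against 14815 CPM in acupuncture library 2. In dysentery library 1 it stood at 8118 CPM in Apoe-high against 13372 CPM in Apoe-low members, and in dysentery library 2 at 3136 against 18444 CPM. Ccr2, the chemokine receptor of recruited monocytes, stood at 4.44 against 722 CPM and 77.8 against 333 CPM in the acupuncture libraries, and at 13.1 against 360 CPM and 0 against 473 CPM in the dysentery libraries, Apoe-high members first. Apoe-low members thus held more RT1-Da and Ccr2 RNA in each of the 4 libraries. Gpnmb, a transmembrane glycoprotein of lipid-laden macrophages, ran the other way, at 2805 against 314 CPM and 502 against 147 CPM in the acupuncture libraries and at 1904 against 211 CPM and 3026 against 153 CPM in the dysentery libraries. Trem2 itself was higher in Apoe-high members in each library, at 769 against 408 CPM and 338 against 245 CPM with acupuncture and at 1700 against 424 CPM and 627 against 237 CPM in dysentery.

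**Figure D2:**
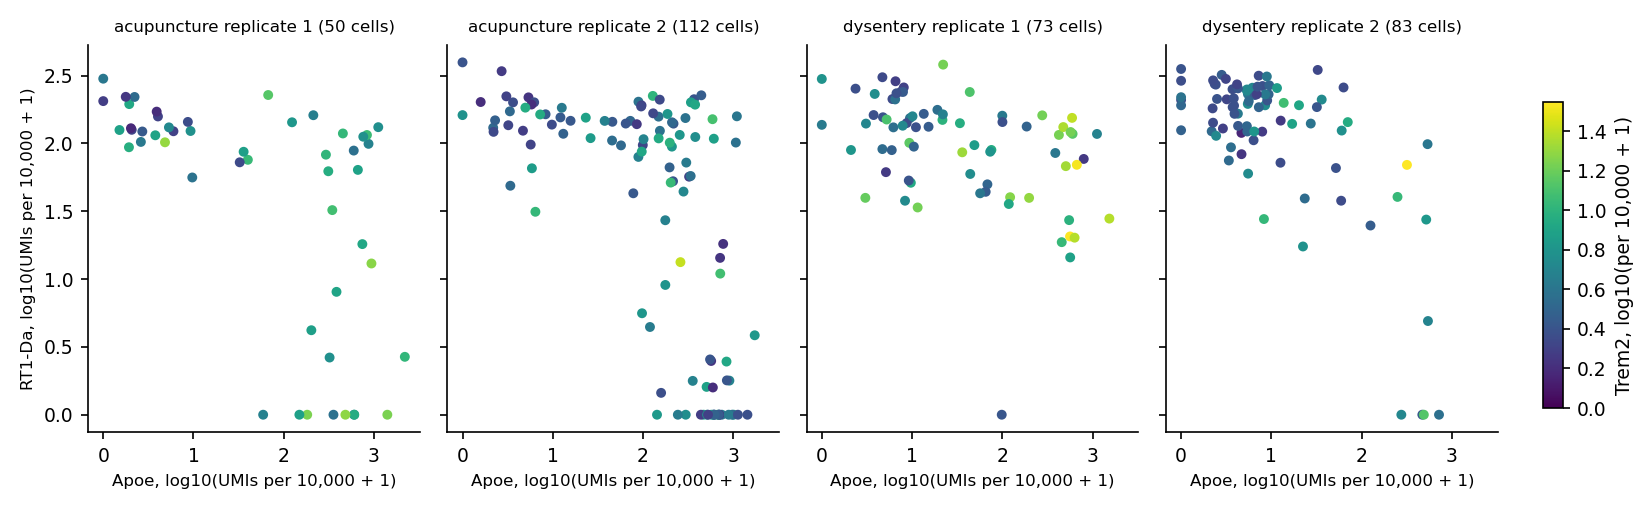
Each point is 1 Trem2+ Cd209f- cell, placed by its Apoe level (horizontal axis) and its RT1-Da level (vertical axis), both as log10 of UMIs per 10000 plus 1, and coloured by Trem2 on the same scale; panels are the 4 libraries. Cells low in Apoe mostly lie at high RT1-Da, and the high-Apoe side holds 50.0% and 60.7% of the cells with acupuncture and 28.8% and 12.05% in dysentery.

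Dysentery library 1 stood apart by a set of members with much Trem2. Its 18 members with at least 10 Trem2 UMIs had 43044 CPM of Apoe, 1820 CPM of Gpnmb, 2331 CPM of Spp1 (osteopontin, a secreted matrix phosphoprotein), 2704 CPM of Fabp4 (a fatty-acid carrier) and 28855 CPM of Lyz2 (lysozyme). Its 22 members with a single Trem2 UMI had 9858 CPM of Apoe, 150 CPM of Gpnmb, 6.81 CPM of Spp1, 191 CPM of Fabp4 and 14705 CPM of Lyz2. The first set was also deeper, with a median of 18150.5 UMIs against 7068.5 UMIs per cell. High Apoe and Gpnmb were not particular to this library. The 7 members of acupuncture library 1 with at least 10 Trem2 UMIs had 75622 CPM of Apoe and 4635 CPM of Gpnmb. Their Spp1 was at 0 CPM, with 435 CPM of Fabp4 and 5633 CPM of Lyz2. The 2 such members of dysentery library 2 had 6151 CPM of Gpnmb and 5208 CPM of Fabp4. Their Spp1 was at 0 CPM and their Lyz2 at 2665 CPM. Over all members, Spp1 stood at 4.46 and 1.82 CPM with acupuncture and 996 and 1.60 CPM in dysentery. Its level in the dysentery group thus came from dysentery library 1. Few of its 73 members carried it: the top 10% held 95.2% of the Spp1 UMIs, and 72.6% had none. For Gpnmb the top 10% held 85.3% of the UMIs. This library also held 68 of the 85 Mmp12-high cells, against 12 and 5 with acupuncture and 0 in the other dysentery library.

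Between acupuncture and dysentery, the genes that passed in members included Il10, 3 chemokines and 10 early-response genes, all higher, and Lyz2, which was lower. The edgeR quasi-likelihood test on sums per library called 66 of 6059 genes at an adjusted p under 0.05 (1.09%), 59 higher (0.974%) and 7 lower (0.116%), and 827 genes had an unadjusted p under 0.05. The CPM of the groups did not overlap for 44.9% of genes, 21.8% higher and 23.1% lower. Acupuncture library 2 carried many of the calls: without it 8 genes were called, 5 of them among the 66, against 131 to 237 without any one of the other libraries. Il10, Cxcl3, Tiparp, AABR07030773.1 and 1 gene with no symbol were the 5 called whichever library was left out. Log2 changes in these paragraphs are acupuncture over dysentery with the standard error of the fit, and adjusted p-values are from edgeR with the Benjamini-Hochberg method over all genes tested.

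Il10, the main cytokine that damps inflammatory macrophages, stood at 498 and 685 CPM in members with acupuncture, against 38.4 and 64.1 CPM in dysentery. Both acupuncture libraries were far above both dysentery libraries, and the change was 3.57 ± 0.30 on the log2 scale (edgeR adjusted p = 0.0060). It was called under all 15 alternative settings. After thinning, 27.7% and 50.5% of members with acupuncture had an Il10 UMI, against 4.35% and 3.61% in dysentery (unthinned 42% and 67.9% with acupuncture, and 12.3% and 12.05% in dysentery). The share in thinned T cells was 4.57% and 1.86% with acupuncture and 1.06% and 0.775% in dysentery. Il10 was also higher in the rest of the gate, which stood at 589 and 731 CPM with acupuncture and 66.8 and 147 CPM in dysentery, a log2 change of 2.74. The difference between the log2 changes of members and of other gate cells was 0.75 ± 0.24 and did not pass the test (edgeR adjusted p = 0.58).

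Chemokines that attract neutrophils and monocytes rose. Cxcl2, a neutrophil attractant, stood at 5094 and 7812 CPM with acupuncture and 1198 and 399 CPM in dysentery, a log2 change of 3.02 ± 0.49 (edgeR adjusted p = 0.038). Cxcl3, a relative of Cxcl2, had 219 UMIs over the acupuncture members and 2 UMIs over the dysentery members, at 192 and 121 CPM and at 2.65 and 0 CPM. Its ratio of CPM was 97.7 with a counting interval of 26.7 to 812. Ccl7, a monocyte attractant, stood at 1409 and 1803 CPM with acupuncture and 167 and 426 CPM in dysentery (2.48 ± 0.39, edgeR adjusted p = 0.035). Of 11 chemokines tested, these 3 rose and none fell, with a median log2 change of 2.21 against 0.01 over all genes. Ccl2, the main ligand of Ccr2, stood at 3864 and 4324 CPM with acupuncture and 378 and 1362 CPM in dysentery and did not pass (2.27 ± 0.49, edgeR adjusted p = 0.089). Cxcl2 UMIs were found in 80.9% and 89.9% of thinned members with acupuncture, against 31.9% and 12.05% in dysentery (unthinned 78% and 91.96%, against 35.6% and 18.1%), and in 7.61% and 7.66% of thinned T cells with acupuncture and 1.76% and 0.258% in dysentery.

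Early-response transcription factors and their feedback regulators are switched on soon after a stimulus, and also during tissue digestion. Of 22 such genes tested, 10 rose, none fell and 12 did not pass (Fos, Fosb, Jun, Junb, Atf3, Maff, Btg2, Zfp36, Gadd45b and Dusp5), with a median log2 change of 1.40. All 10 calls were lost without acupuncture library 2, and those of Maff and Dusp5 were lost in 8 of 15 alternative settings. Gadd45b, a stress-response regulator of kinases, stood at 875 CPM in both acupuncture libraries and 211 and 109 CPM in dysentery (2.46 ± 0.32, edgeR adjusted p = 0.024). Junb, an AP-1 subunit, stood at 3719 and 4836 CPM with acupuncture and 1765 and 1078 CPM in dysentery (1.60 ± 0.27, edgeR adjusted p = 0.044). Fos, another AP-1 subunit, stood at 5346 and 6131 CPM with acupuncture and 3060 and 2784 CPM in dysentery (0.99 ± 0.16, edgeR adjusted p = 0.038). The 2 groups did not overlap for any of these 3 genes, which also held for 44.9% of all genes tested.

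Of 18 NF-kB subunits and feedback genes tested, 3 rose and none fell, with a median of 1.30. Nfkbiz, an atypical inhibitor protein that co-activates NF-kB, stood at 629 and 661 CPM with acupuncture and 183 and 99.3 CPM in dysentery (2.20 ± 0.30, edgeR adjusted p = 0.025). Rel, an NF-kB subunit, stood at 199 and 145 CPM with acupuncture and 43.7 and 46.5 CPM in dysentery (1.93 ± 0.26, edgeR adjusted p = 0.025). Icam1, an adhesion molecule induced by NF-kB, stood at 364 and 291 CPM with acupuncture and 106 and 62.5 CPM in dysentery (1.95 ± 0.29, edgeR adjusted p = 0.030). Genes of classical and of alternative activation were both among those that rose: Il1b, an inflammatory cytokine, stood at 350 and 372 CPM with acupuncture and 158 and 141 CPM in dysentery (1.29 ± 0.20, edgeR adjusted p = 0.033). The call of Il1b was lost in 4 of 15 alternative settings, and its log2 change was -0.30 when the rule was applied to thinned cells. Socs3, a suppressor of cytokine signalling, stood at 725 and 922 CPM with acupuncture and 217 and 231 CPM in dysentery (1.90 ± 0.21, edgeR adjusted p = 0.018). The list of classical activation had 2 of 9 genes higher (median 0.56), and the list of alternative activation had Il10 alone of 10 higher (median 0.79). Tnf, an inflammatory cytokine, stood at 17.9 and 28.2 CPM with acupuncture and 42.4 and 11.2 CPM in dysentery, where the groups overlapped (-0.16 ± 0.58, edgeR adjusted p = 0.94). Arg1 and Nos2, the arginine enzymes of alternative and classical activation in mouse, were at most 6.62 CPM in any library and were not tested.

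Secreted stress and growth signals rose in 2 of 9 genes tested, with a median of 1.16. Gdf15, a stress-induced cytokine of the TGF-beta family, stood at 1071 and 1001 CPM with acupuncture and 233 and 88.1 CPM in dysentery (2.69 ± 0.41, edgeR adjusted p = 0.033). Hbegf, a ligand of the epidermal growth factor receptor, stood at 40.2 and 51.9 CPM with acupuncture and 5.30 and 8.01 CPM in dysentery (2.84 ± 0.42, edgeR adjusted p = 0.029). Among other large rises, Tiparp, an ADP-ribosyltransferase induced by the aryl hydrocarbon receptor, stood at 440 and 274 CPM with acupuncture and 66.2 and 40.1 CPM in dysentery (2.73 ± 0.34, edgeR adjusted p = 0.023). It was called under all 15 alternative settings. Pdpn, the membrane glycoprotein podoplanin, stood at 91.5 and 199 CPM with acupuncture and 17.2 and 19.2 CPM in dysentery (3.06 ± 0.43, edgeR adjusted p = 0.027). The remaining largest rises were Ccdc152, Slc7a5 (an amino acid transporter), Dusp5 (a phosphatase of ERK), Septin8 and Ell2 (a transcription elongation factor). Their log2 changes lay between 2.59 and 4.46. Hbegf lost its call in 6 of 15 alternative settings, Ccdc152 in 3, Septin8 and Ell2 in 7, Dusp5 in 8 and Slc7a5 in 9. Selenop, a selenium-carrying protein, stood at 4875 and 9004 CPM with acupuncture and 2052 and 2411 CPM in dysentery (1.66 ± 0.28, edgeR adjusted p = 0.043).

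**Figure D3:**
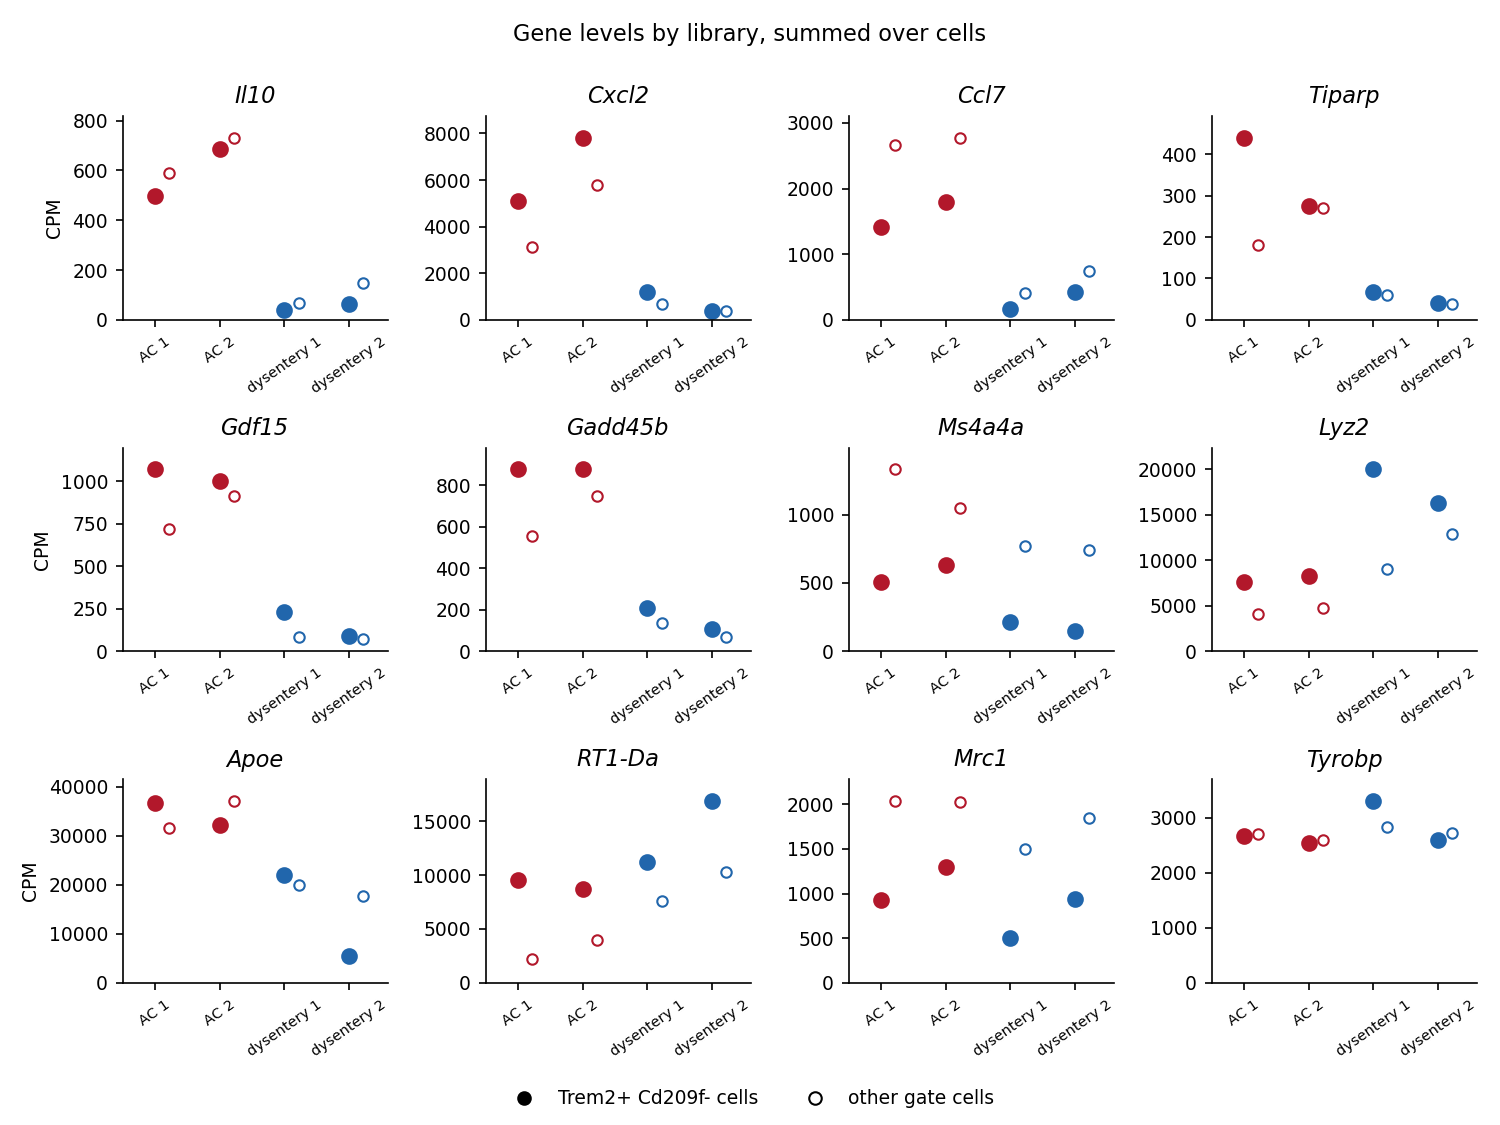
CPM per library of 12 genes, summed over Trem2+ Cd209f- cells (filled points) and over the other C1q-gate cells (open points); red marks acupuncture (AC) libraries and blue dysentery libraries. Il10 stands at 498 and 685 CPM with acupuncture and 38.4 and 64.1 CPM in dysentery in Trem2+ Cd209f- cells, Lyz2 is lower with acupuncture, and Tyrobp overlaps.

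Few genes fell. Lyz2 stood at 7576 and 8261 CPM with acupuncture and 19973 and 16232 CPM in dysentery, a log2 change of -1.17 ± 0.16 (edgeR adjusted p = 0.025). Eef1a1, a translation elongation factor, stood at 2038 and 1991 CPM with acupuncture and 3854 and 4066 CPM in dysentery (-0.95 ± 0.15, edgeR adjusted p = 0.038). Acaa2, a mitochondrial enzyme of fatty-acid breakdown, stood at 42.4 and 34.6 CPM with acupuncture and 131 and 103 CPM in dysentery (-1.62 ± 0.27, edgeR adjusted p = 0.044). Acaa2 lost its call in 6 and Eef1a1 in 3 of 15 alternative settings. The largest fall was of AABR07030773.1, a gene known by its clone name, at 8.93 and 9.11 CPM with acupuncture and 237 and 191 CPM in dysentery (-4.52 ± 0.31, edgeR adjusted p = 0.0031), and another such gene, AABR07060872.1, stood at 0 and 3.64 CPM with acupuncture and 39.7 and 32.0 CPM in dysentery. Of 15 genes of the monocyte list, Lyz2 alone fell and none rose, with a median of -0.90.

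The TREM2 pathway itself changed in 1 of 14 genes tested, with a median of 0.01. That gene was Ms4a4a, a membrane protein linked in human genetics to soluble TREM2, at 507 and 628 CPM with acupuncture and 213 and 146 CPM in dysentery (1.68 ± 0.26, edgeR adjusted p = 0.033). Tyrobp overlapped between the groups (-0.16 ± 0.18, edgeR adjusted p = 0.75). Syk, the kinase downstream of TYROBP, stood at 78.1 and 59.2 CPM with acupuncture and 53.0 and 54.5 CPM in dysentery (0.34 ± 0.26, edgeR adjusted p = 0.62). Ms4a7, Plcg2, Inpp5d, Blnk, Pik3cd, Grb2, Vav1, Vav3, Adam10, Hcst and Trem1 had log2 changes between -0.80 and 0.52, and none of them passed.

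None of the 20 lipid-associated genes tested passed, with a median of 0.12 (the list was Apoe, Gpnmb, Lgals3, Lpl, cathepsins and others, while Fabp5 was not analysed here). Apoe stood at 36707 and 32289 CPM with acupuncture and 22017 and 5575 CPM in dysentery (1.33 ± 0.52, edgeR adjusted p = 0.32). Gpnmb stood at 1565 and 363 CPM with acupuncture and 894 and 447 CPM in dysentery, where the groups overlapped (0.52 ± 0.60, edgeR adjusted p = 0.76). Lgals3, the lectin galectin-3, stood at 1071 and 512 CPM with acupuncture and 1225 and 764 CPM in dysentery and overlapped too (-0.33 ± 0.37, edgeR adjusted p = 0.75). Lpl, a secreted lipase, stood at 205 and 67.4 CPM with acupuncture and 236 and 362 CPM in dysentery (-1.18 ± 0.46, edgeR adjusted p = 0.32). No gene passed among 17 cholesterol genes (median 0.56), 18 lysosomal genes (median 0.28), 17 phagocytosis genes (median 0.00), 15 complement genes (median -0.16), 11 iron genes (median -0.21), 12 heat shock genes (median 0.69), 12 interferon genes (median 0.13), 13 glycolysis genes (median 0.30) or 5 cell cycle genes (median -0.25).

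One resident gene and no antigen-presentation gene passed. Mrc1, the mannose receptor, stood at 929 and 1302 CPM with acupuncture and 507 and 940 CPM in dysentery (0.66 ± 0.30, edgeR adjusted p = 0.39). Cd163, the haemoglobin scavenger receptor, stood at 223 and 434 CPM with acupuncture and 83.5 and 184 CPM in dysentery (1.36 ± 0.41, edgeR adjusted p = 0.21). Folr2, a folate receptor, and Lyve1, a hyaluronan receptor, had log2 changes of -0.04 and -0.06. Selenop was the only gene of 15 on the resident list to rise, with a list median of 0.43. RT1-Da stood at 9552 and 8718 CPM with acupuncture and 11251 and 16879 CPM in dysentery (-0.60 ± 0.19, edgeR adjusted p = 0.23), and Cd74, the class II chaperone, at 17568 and 16669 CPM with acupuncture and 19750 and 27906 CPM in dysentery (-0.45 ± 0.16, edgeR adjusted p = 0.30). Of 11 antigen-presentation genes none passed, with a median of -0.45. The share of Apoe-high members was higher in both acupuncture libraries, and its part in these differences was not tested.

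Shares of members with a UMI were compared for 14 genes after thinning to 2000 UMIs. The smallest adjusted p of the two-sided exact permutation test was 0.467, so none passed and none could. RT1-Da UMIs were found in 83.0% and 74.3% of members with acupuncture and 98.6% and 95.2% in dysentery (unthinned 84% and 81.3%, against 98.6% and 95.2%), with 14.2% and 13.5% of T cells with acupuncture and 26.8% and 19.1% in dysentery as background. Lsp1, a leukocyte actin-binding protein, was found in 23.4% and 20.2% of members with acupuncture and 49.3% and 47.0% in dysentery (unthinned 40% and 46.4%, against 71.2% and 79.5%). T cells make Lsp1 too, at 35.3% and 38.7% with acupuncture and 43.6% and 43.2% in dysentery. The groups did not overlap for either gene, but the same held for most of the 14. It held for Mrc1, Cd163, Folr2, Gpnmb, Spp1, Il10, Cxcl2 and Il1b, while Lyve1, Cd9, Ccr2 and Mki67 overlapped.

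The change between acupuncture and dysentery was set against the same change in the other gate cells, and 4 of 9602 genes differed by the interaction test (0.0417%), 1 higher (0.0104%) and 3 lower (0.0312%) in members. At an unadjusted p under 0.05 there were 561 genes, and DESeq2 called 3. Ccl4, a chemokine for monocytes and T cells, stood at 817 and 1002 CPM in members with acupuncture and 730 and 92.9 CPM in members in dysentery, while the other gate cells stood at 232 and 286 CPM with acupuncture and 637 and 104 CPM in dysentery. Its log2 change was larger in members by 1.64 ± 0.21 (edgeR adjusted p = 0.0019), and the dysentery libraries differed widely from each other in both sets of cells. Hspb1, a small heat shock protein, stood at 37.9 and 51.9 CPM in members with acupuncture and 167 and 38.4 CPM in members in dysentery, and at 77.7 and 168 CPM in other gate cells with acupuncture and 38.4 and 6.98 CPM in other gate cells in dysentery (difference -3.84 ± 0.30, edgeR adjusted p = 4.7e-06). Ccl4 and Hspb1 were called with any one library left out, and Hspb1 lost its call when the rule was applied to thinned cells.

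The other 2 genes were haemoglobin chains. Hbb-b1 stood at 22.3 and 32.8 CPM in members with acupuncture and 17.2 and 1.60 CPM in members in dysentery, against 245 and 724 CPM in other gate cells with acupuncture and 13.4 and 2.11 CPM in other gate cells in dysentery (difference -4.62 ± 0.58, edgeR adjusted p = 0.0019). Hba-a2 stood at 37.9 and 47.4 CPM in members with acupuncture and 29.1 and 51.3 CPM in members in dysentery, against 186 and 464 CPM with acupuncture and 47.4 and 109 CPM in dysentery in other gate cells (difference -2.16 ± 0.35, edgeR adjusted p = 0.028). The summed level of 6 red cell and platelet genes was 60.3 and 80.2 CPM in members with acupuncture and 46.4 and 52.9 CPM in members in dysentery, and 433 and 1196 CPM with acupuncture and 61.9 and 112 CPM in dysentery in other gate cells. Hbb-b1 lost its call in 5 and Hba-a2 in 6 of 15 alternative settings, both of them with scored doublets removed, with Col1a under 3 per 10000 and with the rule applied to thinned cells. Globin copies are near-identical, so the share of each is uncertain, and the part of red cell RNA in this difference was not tested.

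Members differed from the rest of the gate in levels summed over cells. The rule split cells on transcripts of the same cells, so genes that vary with Cd209f, Ccl24, Mmp12 or Trem2 across cells differ by that choice, and the counts of calls that follow describe the subset. Against all other gate cells, with library as a block, 459 of 8891 genes passed (5.16%), 191 higher (2.15%) and 268 lower (3.01%) in members, and 25.8% of genes lay on the same side in every library. Against Cd209f/Ccl24+ cells alone, 661 of 7175 genes passed (9.21%), 329 higher (4.59%) and 332 lower (4.63%), and 32.1% lay on the same side in every library. Against Trem2 0 UMI cells, 227 passed (3.16%), 168 higher (2.34%) and 59 lower (0.822%), with 22.8% on the same side in every library. Log2 differences in the next paragraphs are members over the named cells, and edgeR adjusted p-values are given where a gene passed.

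Resident genes stood lower in members than in Cd209f/Ccl24+ cells. Cd163 stood at 223, 434, 83.5 and 184 CPM in members of acupuncture libraries 1 and 2 and dysentery libraries 1 and 2, against 785, 865, 700 and 810 CPM in Cd209f/Ccl24+ cells of the same libraries (-1.97 ± 0.26, edgeR adjusted p = 4.3e-05). In the same order, Mrc1 stood at 929, 1302, 507 and 940 CPM in members and 2102, 2133, 2112 and 2268 CPM in Cd209f/Ccl24+ cells (-1.24 ± 0.17, edgeR adjusted p = 8.4e-05). Members were below Cd209f/Ccl24+ cells in each library for both receptors. Of 16 resident genes tested, 12 were lower and none higher, with a median of -1.15 against 0.01 over all genes. Selenop differed by -1.97, F13a1 (a coagulation factor chain) by -1.51, Lyve1 by -1.18 and Folr2 by -0.74. Csf1r, which is not on that list, differed by -1.03. Iron genes followed, with 8 of 13 lower and none higher (median -0.62), among them Tfrc, the transferrin receptor, at -1.63 and Cp, the ferroxidase ceruloplasmin, at -1.14.

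Several genes of Cd209f/Ccl24+ cells were almost missing in members. Dnase1l3, a secreted nuclease, stood at 60.3, 10.9, 10.6 and 17.6 CPM in members and 344, 210, 263 and 243 CPM in Cd209f/Ccl24+ cells (-3.60 ± 0.25, edgeR adjusted p = 4.4e-08). Gria2, a glutamate receptor subunit, stood at 6.70, 7.29, 1.32 and 1.60 CPM in members and 89.7, 55.4, 59.4 and 49.7 CPM in Cd209f/Ccl24+ cells (-3.72 ± 0.33, edgeR adjusted p = 3.1e-06). Ptger3, a prostaglandin E2 receptor, was at 0 CPM in members of acupuncture library 1 and both dysentery libraries and at 1.82 CPM in members of acupuncture library 2, against 32.1, 16.7, 24.2 and 24.2 CPM in Cd209f/Ccl24+ cells. Members stood below in each library for each of these genes. That was a condition for naming the largest falls, so it adds no support, and 32.1% of all genes lay on the same side in every library.

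Lipid-associated, monocyte and antigen-presentation genes stood higher in members than in Cd209f/Ccl24+ cells. Of 24 lipid-associated genes, 13 were higher and none lower than in Cd209f/Ccl24+ cells (median 0.93). Of these 13, only Gpnmb, Lgals3, Lgals1 and Spp1 were also called higher in members than in Trem2 0 UMI cells. Lpl was called lower there, and the rest, among them Fabp4, Cst7 and Clec7a, did not pass. Fabp4 stood at 386, 37.3, 1463 and 393 CPM in members and 32.7, 14.8, 58.2 and 71.0 CPM in Cd209f/Ccl24+ cells (3.24 ± 0.53, edgeR adjusted p = 0.00046). Cst7, an inhibitor of lysosomal proteases, stood at 123, 73.8, 148 and 221 CPM in members and 15.7, 11.8, 50.0 and 49.0 CPM in Cd209f/Ccl24+ cells (2.38 ± 0.23, edgeR adjusted p = 3.1e-06). Gpnmb differed by 1.59, Lpl by 1.76, Clec7a (the beta-glucan receptor dectin-1) by 2.61 and Lgals3 by 0.81. In the same order of libraries, 46%, 41.1%, 41.1% and 57.8% of members held no Gpnmb UMI (unthinned). Of Cd209f/Ccl24+ cells, 41.5%, 31.3%, 40.5% and 38.8% held none. The higher Gpnmb level was thus one of sums over cells, not of a larger share of members carrying it. Spp1 differed by 2.73, but its level rested on dysentery library 1 in both sets of cells (996 CPM in members and 83.6 CPM in Cd209f/Ccl24+ cells). Apoe did not differ beyond the spread (-0.55 ± 0.58, edgeR adjusted p = 0.67).

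Of 17 monocyte genes, 10 were higher and 2 lower (median 1.06). Ccr2 stood at 362, 178, 220 and 425 CPM in members and 27.8, 23.4, 50.4 and 152 CPM in Cd209f/Ccl24+ cells (2.54 ± 0.30, edgeR adjusted p = 1.6e-05). Cx3cr1, the fractalkine receptor of patrolling monocytes and some tissue macrophages, stood at 29.0, 7.29, 83.5 and 14.4 CPM in members and 1.37, 0.469, 0.410 and 0.660 CPM in Cd209f/Ccl24+ cells (4.65 ± 0.69, edgeR adjusted p = 0.00016). The 2 lower genes were S100a8 and S100a9, which are also neutrophil genes. Of 13 antigen-presentation genes, 8 were higher and 1, Cd274, lower (median 0.95). RT1-Da stood at 9552, 8718, 11251 and 16879 CPM in members and 1647, 2824, 4902 and 5775 CPM in Cd209f/Ccl24+ cells (1.73 ± 0.25, edgeR adjusted p = 0.00011), and Ciita, the master activator of class II genes, differed by 2.44. RT1-Bb, another class II chain, stood at 158 CPM in members of acupuncture library 1 against 3329, 3766 and 6448 CPM in those of the other libraries, and at 21.6 against 944, 1764 and 2211 CPM in Cd209f/Ccl24+ cells, so that 1 library stood apart in both. RT1 genes resemble each other, and reads could be split between them.

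Set against Trem2 0 UMI cells, which also lacked Cd209f and Ccl24 UMIs, the order turned for several resident genes and for 3 monocyte genes. Of 16 resident genes, 8 were higher in members and none lower (median 0.95), and of 17 monocyte genes 5 were lower and none higher (median -0.58). Of these 5, Ccr2, Napsa and Hopx were higher in members than in Cd209f/Ccl24+ cells, while S100a8 and S100a9 were lower in members in both comparisons. Cd163 stood at 223, 434, 83.5 and 184 CPM in members and 68.6, 151, 23.3 and 37.8 CPM in Trem2 0 UMI cells, higher in members of each library (1.73 ± 0.28, edgeR adjusted p = 0.0012). Ccr2 stood at 362, 178, 220 and 425 CPM in members and 615, 584, 473 and 733 CPM in Trem2 0 UMI cells, lower in members of each library (-1.14 ± 0.28, edgeR adjusted p = 0.031). RT1-Da stood at 9552, 8718, 11251 and 16879 CPM in members and 17385, 17339, 17335 and 22972 CPM in Trem2 0 UMI cells and did not pass (-0.75 ± 0.24, edgeR adjusted p = 0.11). For Cd163, Selenop, Ccr2 and RT1-Da, members therefore lay between Cd209f/Ccl24+ and Trem2 0 UMI cells in each of the 4 libraries. In median depth, members had 7829, 8495.5, 9114 and 6922 UMIs per cell, against 9510, 9121.5, 5966 and 7201 UMIs in Trem2 0 UMI cells.

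Several genes of lipid handling and of lysosomes were higher in members than in Trem2 0 UMI cells. Apoe stood at 36707, 32289, 22017 and 5575 CPM in members and 1636, 5693, 1023 and 1277 CPM in Trem2 0 UMI cells (3.23 ± 0.63, edgeR adjusted p = 0.0067). Gpnmb stood at 1565, 363, 894 and 447 CPM in members and 38.9, 83.2, 120 and 55.2 CPM in Trem2 0 UMI cells (3.19 ± 0.47, edgeR adjusted p = 0.00066). Lgals3 stood at 1071, 512, 1225 and 764 CPM in members and 163, 171, 322 and 240 CPM in Trem2 0 UMI cells (1.97 ± 0.25, edgeR adjusted p = 0.00026). The 2 sets did not overlap for Gpnmb or Lgals3, while for Apoe the members of dysentery library 2 were just below the highest Trem2 0 UMI value. Of 24 lipid-associated genes, 10 were higher and 1, Lpl, lower (median 0.71). Of 19 lysosomal genes 8 were higher and none lower (median 0.59), among them Lgmn (a lysosomal protease) at 1.40 and Grn (progranulin) at 1.11. Against Cd209f/Ccl24+ cells, lysosomal genes were not raised in members: 1 of 19 was higher and 2 were lower (median -0.24). Cxcl13, a B cell attractant, stood at 181, 96.5, 180 and 88.1 CPM in members and 0, 7.37, 32.1 and 14.3 CPM in Trem2 0 UMI cells (3.45 ± 0.45, edgeR adjusted p = 0.00026). Against Cd209f/Ccl24+ cells, Cxcl13 was called lower in members. Lower in members than in Trem2 0 UMI cells were Ccl17, a chemokine of dendritic cells, at -2.62 and Napsa, an aspartic protease, at -1.20.

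**Figure D4:**
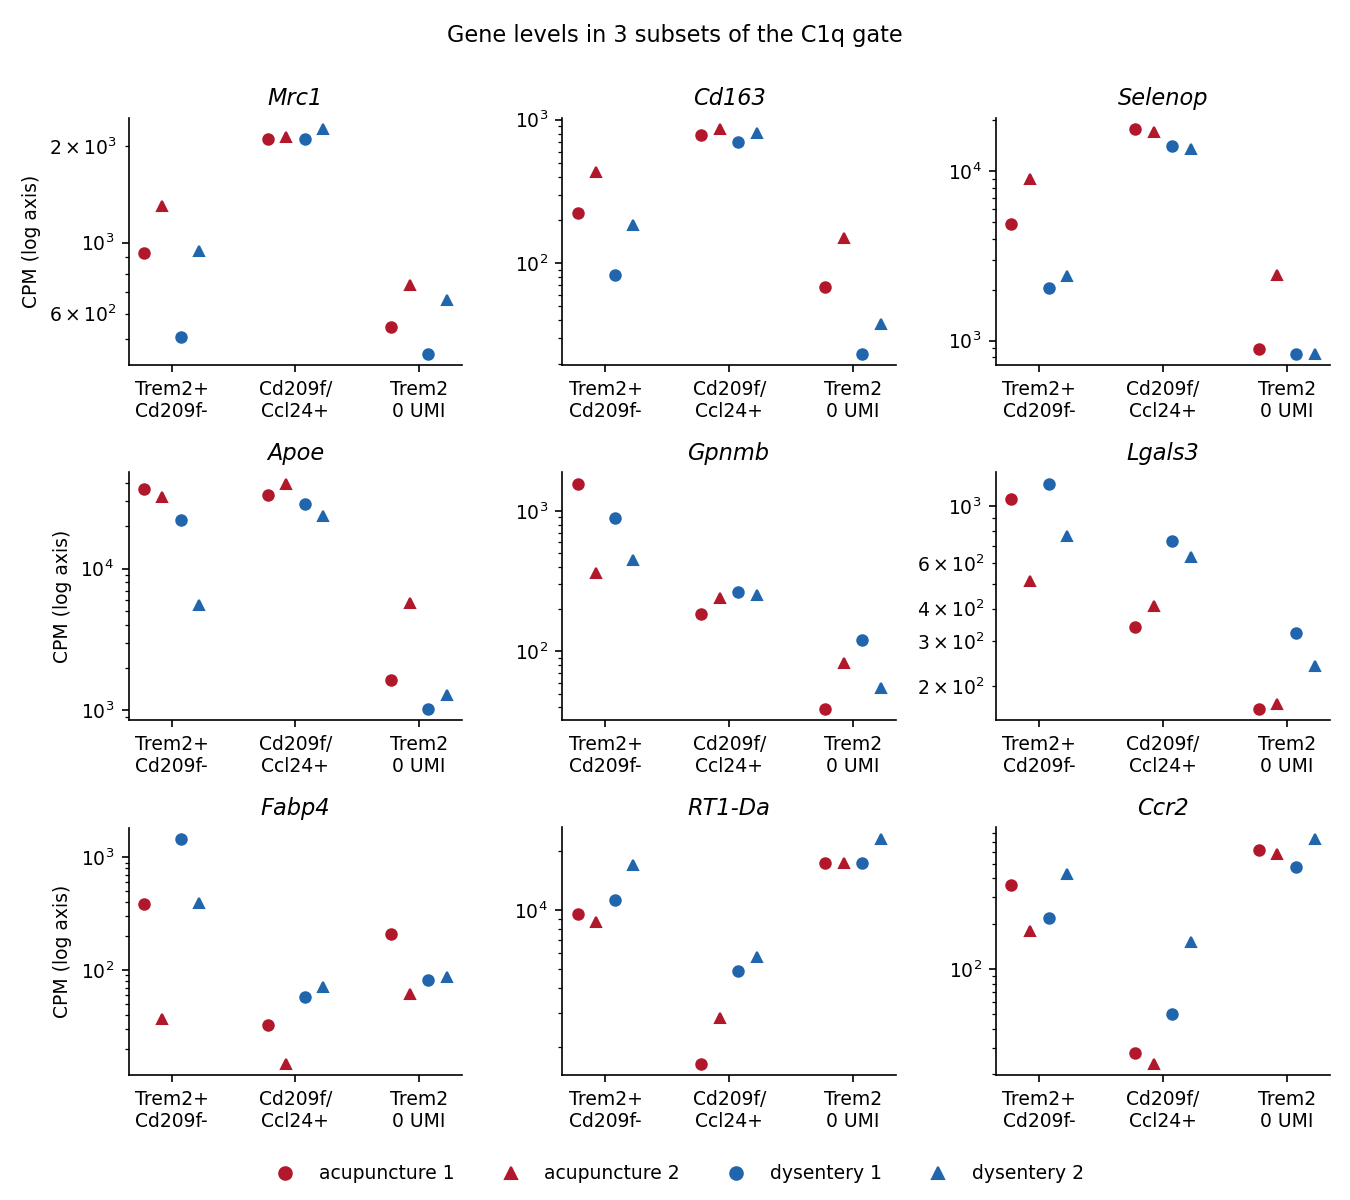
CPM on log axes of 9 genes in Trem2+ Cd209f- cells, Cd209f/Ccl24+ cells and Trem2 0 UMI cells; each point is the sum over the cells of 1 library, with colour and shape for the library. For Cd163 and Selenop the summed level of Trem2+ Cd209f- cells lies between the other sets in each library. It does so in the opposite order for RT1-Da and Ccr2. Summed Gpnmb is highest in Trem2+ Cd209f- cells in each library. The 10% of these cells with most Gpnmb hold 82.2% and 51.1% of its UMIs with acupuncture and 85.3% and 80.6% in dysentery.

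Of the TREM2 pathway, Tyrobp, Syk and Plcg2 differed by 0.10, -0.13 and 0.01 from Cd209f/Ccl24+ cells, and none of them passed. Blnk, a B cell and macrophage adaptor downstream of SYK, was higher in members, at 64.7, 38.3, 96.7 and 48.1 CPM against 13.4, 17.9, 18.8 and 18.5 CPM in Cd209f/Ccl24+ cells (1.80 ± 0.24, edgeR adjusted p = 7.0e-05). Ms4a4a was lower, at 507, 628, 213 and 146 CPM in members against 1379, 1123, 1058 and 990 CPM (-1.76 ± 0.29, edgeR adjusted p = 0.00054). These were the only 2 of 14 genes of that list to pass against Cd209f/Ccl24+ cells, and Ms4a4a and Ms4a7 (1.26) were the 2 that passed, both higher, against Trem2 0 UMI cells.

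Mmp12-high cells could be compared only loosely, with 12 and 5 cells with acupuncture and 68 and 0 in dysentery. In the same fit 783 genes passed (10.9%), 466 higher (6.49%) and 317 lower (4.42%) in members. Spp1 was lower in members by -3.31 ± 0.55 (edgeR adjusted p = 0.00058), and Apoe was higher by 2.29 ± 0.68 (edgeR adjusted p = 0.037). These values rest mainly on dysentery library 1.

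**Figure D5:**
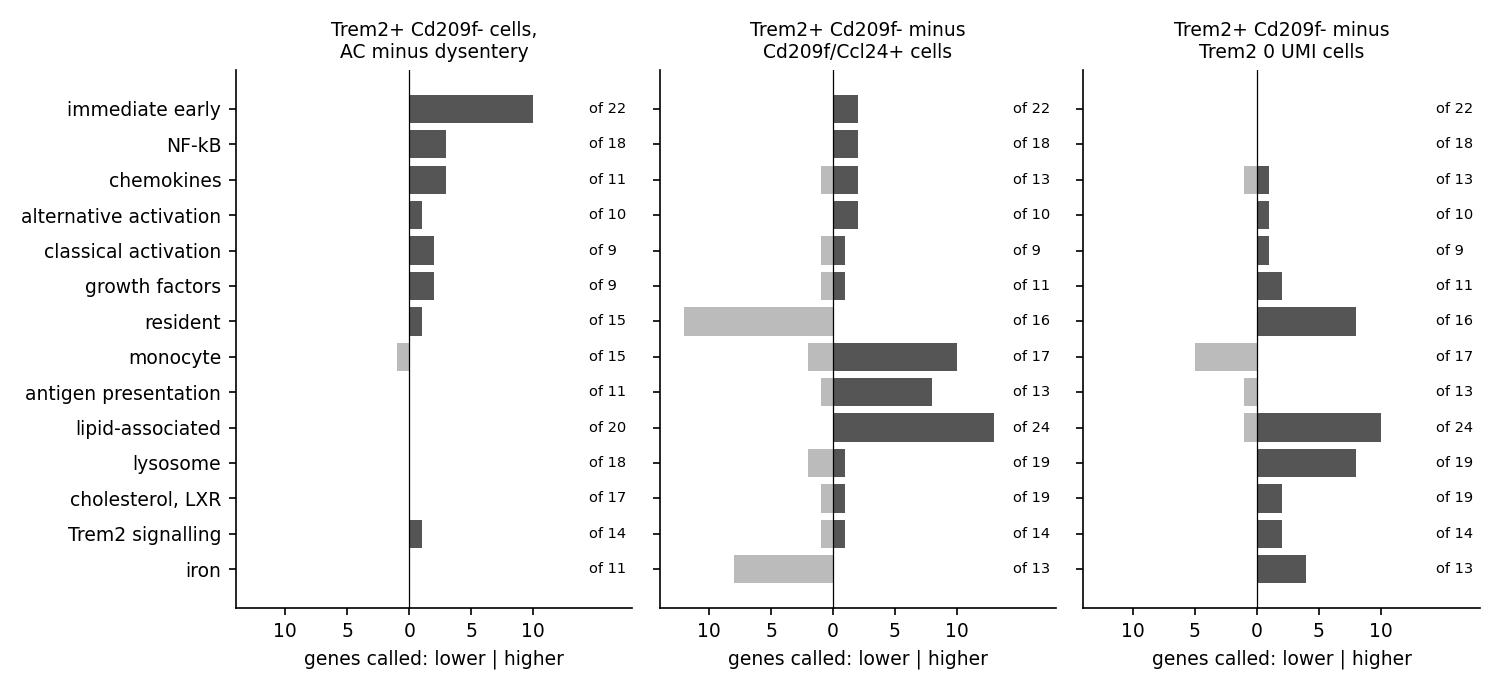
Number of genes called per list, lower to the left and higher to the right, with the number tested beside each bar, for Trem2+ Cd209f- cells with acupuncture against dysentery (left), against Cd209f/Ccl24+ cells (centre) and against Trem2 0 UMI cells (right). Early-response genes lead in the left panel with 10 of 22 higher, while resident genes are lower in the centre panel (12 of 16) and higher in the right panel (8 of 16).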

How the data were processed

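Single-cell RNA libraries of 4 samples were analysed, 2 from acupuncture and 2 from dysentery rats, grouped by title. The authors deposited, per library, a matrix holding unnormalized counts of UMIs for each gene in each cell, with files of barcodes and gene names (unit other, names only, as deposited). Cell Ranger 6.0.1, STAR and the builds mRatBN7.2 and GRCh38.p13 are named in the submitters' processing notes, with no role given. Counts held 30560 gene rows, of which 7162 had no symbol. The members and gene lists were chosen with earlier results of these data known.

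Cells with at least 300 genes and at most 20% of counts in 13 mitochondrial genes were kept. Counts were summed per library and cell subset. Genes passed edgeR's filterByExpr with a minimum count of 10, and were scaled by TMM and tested with edgeR 4.0.16 (quasi-likelihood, Benjamini-Hochberg adjusted p under 0.05) in R 4.3.3. Acupuncture was compared with dysentery over 2 against 2 libraries. Members were compared with other gate cells with library as a term, and the difference of the 2 changes was tested as an interaction. The subsets were split on counts of the same cells. Named genes were drawn from the 12 largest rises and 12 largest falls that passed (6 of each against the other subsets). Between acupuncture and dysentery the groups could not overlap. Between cell subsets, every library holding both had to lie on the same side. The mean was at least 20 CPM in the higher group. Added to these were up to 4 genes that passed per list, and a fixed set of TREM2 pathway, lipid, resident and cytokine genes. Other genes named were chosen after their values were seen. Shares were compared by exact permutation over libraries, and with cells thinned at random (seed 1) to 2000 or 1000 UMIs. T cells had at least 3 UMIs of Cd3 genes. Intervals are 95% Clopper-Pearson and cover counting error only. Scrublet scores, with 0.8% doublets per 1000 cells, were used as an alternative. Other alternatives were DESeq2 1.42.0, no filter, each library left out, other rule limits and a replicate block. The fitting was tested on simulated data. No genome was used here.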

Additional observations from a re-analysis of the deposited data

Results flagged for a closer look

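For 4 genes the change between acupuncture and dysentery differed between Trem2+ Cd209f- cells and the other gate cells by the edgeR interaction test. The difference in log2 change was 1.64 for Ccl4, -3.84 for Hspb1, -4.62 for Hbb-b1 and -2.16 for Hba-a2. No explanation was tested.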

How the results depend on the processing

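Of 1688 recomputed values for 117 gene results, 1463 kept their direction and side of the threshold, 199 lost the call, 24 gained it and 2 reversed. The 2 reversals came when the rule was applied to thinned cells, for Il1b between acupuncture and dysentery (-0.30) and Ccr2 between members and other gate cells (-0.51). Where counts of called genes moved, the cause was not tested. Between acupuncture and dysentery they were 110 with scored doublets removed, 137 with the thinned rule, 392 with no filter on low counts and 8 to 237 with 1 library left out. Against other gate cells they were 29 with the thinned rule, 174 with sums of thinned cells under the full rule (chosen after seeing the data), 730 with no filter, 30 without the library term and 333 to 359 with 1 library left out. Against Cd209f/Ccl24+ cells they were 66, 212 and 1012 in the first 3 of these settings, and 396 to 574 with 1 library left out. Against Mmp12-high cells they were 479 with the thinned rule, 270 with sums of thinned cells, 435 with Col1a under 3 per 10000, and 381 to 619 with 1 library left out. Against Trem2 0 UMI cells they were 58 with the thinned rule, 54 with sums of thinned cells, 404 with no filter, 118 with C1q of at least 40 per 10000, and 79 to 317 with 1 library left out. The interaction gave 9 with at least 2 Trem2 UMIs, 7 with C1q of at least 40, 2 with Col1a under 3, 65 with no filter and 37 to 120 with 1 library left out.

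With the replicate number as a block, 34 genes were called between acupuncture and dysentery and 67 by the interaction. Same-numbered libraries share only a number, with a correlation of deviations of 0.0747 over 6059 genes. The difference in share of the gate was -1.66 with cells thinned to 2000 UMIs, 2.14 at 1000 UMIs, and -9.30 to -4.47 with 1 library left out. The difference in share of all cells turned to 0.0564 with at least 2 Trem2 UMIs, 0.0355 with Col1a under 3, 1.40 at 2000 UMIs and 1.78 at 1000 UMIs, and was -0.328 to 0.276 with 1 library left out. Members number 50 to 112 per library, which limits precision for genes with few UMIs.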
